A study of Mus musculus with 6 samples.

Results

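The genes described here are those of mitosis, the centrosome and the cell-cycle kinases: 67 of the 4195 genes in the deposited table. They were chosen by name, as protein-coding genes that the table assigns to no transcription factor family. Their symbols belong to the kinesins (KIF and a digit), the CENP and CEP proteins, or the BUB, PLK, AURK and NEK kinase families. Others are the cyclins with a letter from A to L and a digit, and the cyclin-dependent kinases and their inhibitors. The rest are anaphase-promoting complex genes (ANAPC genes, CDC20 and CDC27), the SMC and NCAP proteins of condensin and cohesin, and a few single spindle genes. KYSE30 is an established human line of esophageal squamous cell carcinoma, and GEO's labels give it as wild type, although they name mouse as the organism while 4183 of the gene IDs are human. RNA was sequenced from 3 Control libraries and from 3 libraries of cells exposed to 100 uM acetylcholine (ACh) for 4 h, and the 2 groups otherwise shared the line and the culture medium. The comparison asks which transcripts differ after this exposure. Nothing in the labels says that replicates were separate cultures, so p-values measure the spread between these libraries, which may be technical.

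A dividing cell moves from one phase to the next as cyclins accumulate and switch on their partner kinases, the CDKs. Entry into mitosis needs cyclin-bound CDK1, freed from its inhibitory phosphates by CDC25 phosphatases. Spindle fibres then grow from the centrosomes and attach to kinetochores, protein plates built on the centromere. A checkpoint holds the cell until every kinetochore is attached, after which the anaphase-promoting complex marks cyclin B and securin for destruction and the chromosomes part. In squamous carcinomas the kinase pair CDK4 and CDK6 and their inhibitor p16, made by CDKN2A, are known as recurrent targets of mutation or copy-number change.

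Values are given as normalised counts, the authors' scaled value per library, and the table lists only genes with an unadjusted p under 0.05 in the authors' own test. Genes of these families without a row, such as AURKA, CCNB1, CCND1 and TPX2, are not analysed here. Within a library the values come in steps of equal size (0.768 to 1.13, to within 0.1 of a step), and the total depth is unknown. Replicates of a group had Pearson's r of 0.994 to 0.997 across genes, and libraries of different groups 0.979 to 0.983. Of 11 squamous markers 6 had a row, among them DSP with a mean of 8044 ± 173 in Control (SD, n = 3). The log2 fold changes in ACh were -0.26 for SFN, -0.20 for SOX2, -0.09 for ITGB4, 0.23 for TP63, 0.12 for DSG3 and 0.08 for DSP. Other cell types had a row for 1 of 4 fibroblast markers (COL1A1, means 177 and 139 in Control and ACh), 1 of 4 leukocyte markers (LAPTM5, 19.6 and 39.6) and 1 of 3 endothelial markers (EGFL7, 1064 and 879), and their part in the results was not tested.

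A gene is said to have risen or fallen where limma's adjusted p and the authors' deposited adjusted p were both under 0.05. Of the 67 genes 34 rose and 17 fell, while 16 missed at least one of these limits. This is 50.7% higher and 25.4% lower. Among all listed genes 28.8% were higher and 35.0% lower past both limits, 63.8% in either direction. With libraries scaled to equal totals over the listed genes 34 rose and 13 fell, against 28.8% and 23.6% of all listed genes. The authors' adjusted p was kept as deposited, so none of the 16 uncalled genes could gain a call by this scaling. The median of all listed genes moved from -0.10 to -0.02. In this table, selected on the authors' p, limma alone passed 99.6% of genes, and all 67 of these. The median log2 fold change was 0.18, against -0.10 over all listed genes, and the changes were small, from -0.34 for NCAPH2 to 0.45 for NEK1, apart from the weakly expressed NEK5. Summed over the 67 genes, the normalised counts were 121762 ± 1269 in Control and 126052 ± 2398 in ACh (SD, n = 3), a ratio of 1.04. In these bulk libraries a change in the number of cells in a phase and a change in RNA per cell cannot be told apart.

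**Figure D1:**
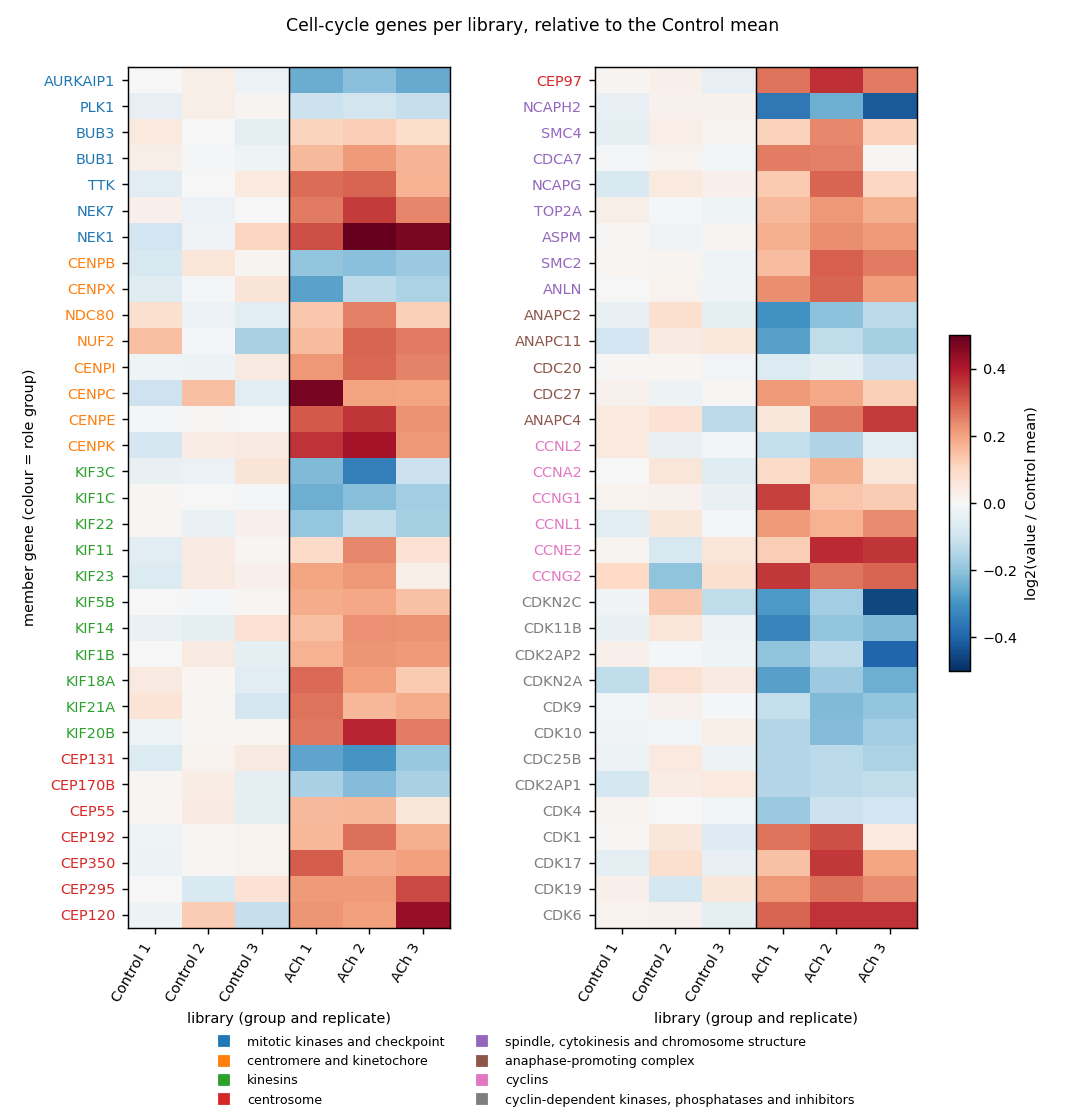
Each row is a gene and each column a library; the colour is log2 of the value over the Control mean, from -0.5 (blue) to 0.5 (red), and the colour of the name gives the role group. NEK5 is left out for its low counts. Most rows are red in all 3 ACh libraries. The rows of the 23 genes with a lower mean in ACh are blue there, from NCAPH2, with the largest difference, to CDC20, with the smallest.

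In 63 of the 67 genes the groups did not overlap, 40 higher and 23 lower in ACh. The share among all listed genes was 93.0%, made up of 44.6% higher and 48.3% lower. The 4 that overlapped were KIF23, CDCA7, ANAPC4 and CDK1. Among the 44 genes with a higher mean in ACh, ACh replicate 2 held the highest ACh value in 31, replicate 1 in 8 and replicate 3 in 5. Without ACh replicate 2, KIF11 no longer passed, and without ACh replicate 1, CCNG1 no longer passed. Every other call of the 67 genes stood whichever single library was left out. Only limma was refitted, and the authors' adjusted p was kept as deposited. No gene of the 67 could therefore gain a call, and a call could be lost through limma alone.

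Direction followed base composition. GC content was that of the mouse gene sharing the symbol, since no human sequence was used, and was found for 66 of the 67 genes (98.5%). All 43 genes with a higher mean had a GC content of 49.9% or less, with CDCA7 the highest, and all 23 with a lower mean had 51.3% or more, with CCNL2 the lowest. The medians were 44.0% and 55.7%. Of all listed genes at or under 49.9%, 91.7% were higher in ACh, and of those at or over 51.3%, 95.4% were lower. The Spearman correlation between GC content and log2 fold change was -0.70 over the 66 genes and -0.76 over 3676 listed genes, as a description across genes measured in the same libraries. Gene length, as the table gives it, moved with the change too: the median was 6561.5 bases for the higher and 3966 bases for the lower genes, with a Spearman correlation of 0.53. Over all listed genes the median length was 5220 bases and the correlation 0.34.

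**Figure D2:**
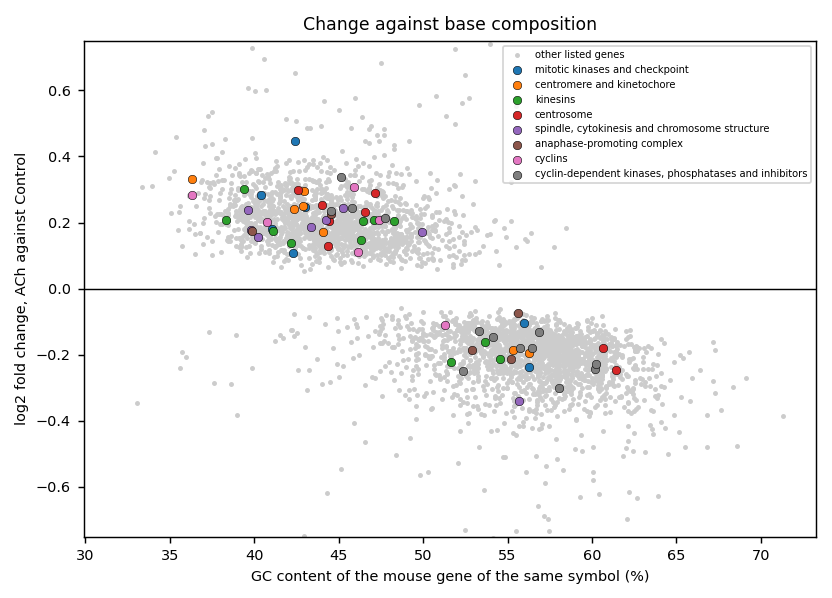
The horizontal axis is the GC content in percent of the mouse namesake, the vertical axis the log2 fold change of ACh against Control; grey points are other listed genes and coloured points the cell-cycle genes by role group. NEK5 (1.48) and the most extreme grey points lie outside the axis range, and CENPC had no GC value. No coloured point lies above 0 to the right of 49.9% or below 0 to the left of 51.3%.

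Once each library's GC trend was taken out, the median over the 66 genes was 0.02, against 0.01 over all listed genes with a GC value. Of the 50 called genes with a GC value 2 held their call and direction, CDK6 and CDK11B, 1 turned, BUB3, and 47 lost the call. That leaves 1 gene higher and 2 lower, 3 of 66 (4.55%). The authors' adjusted p was kept whatever its direction, so BUB3 counts as lower although its deposited change was a rise (0.11). Among all listed genes with a GC value 10.7% were called in this way, 4.90% higher and 5.82% lower. By limma alone 5 of the 66 passed, against 16.6% of all. An unadjusted p under 0.05 was held by 13 of the 66 and by 1056 of the 3676 listed genes with a GC value. The median size of the change fell from 0.21 to 0.06 on the log2 scale. The trend was fitted on listed genes only, which had been selected for a difference, so its size in the whole transcriptome was not measured. A value with the trend removed is therefore relative to listed genes of similar GC content. A gene that changed less than these turns sign, so a reversed pass, as of BUB3, does not show a change in that direction.

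**Figure D3:**
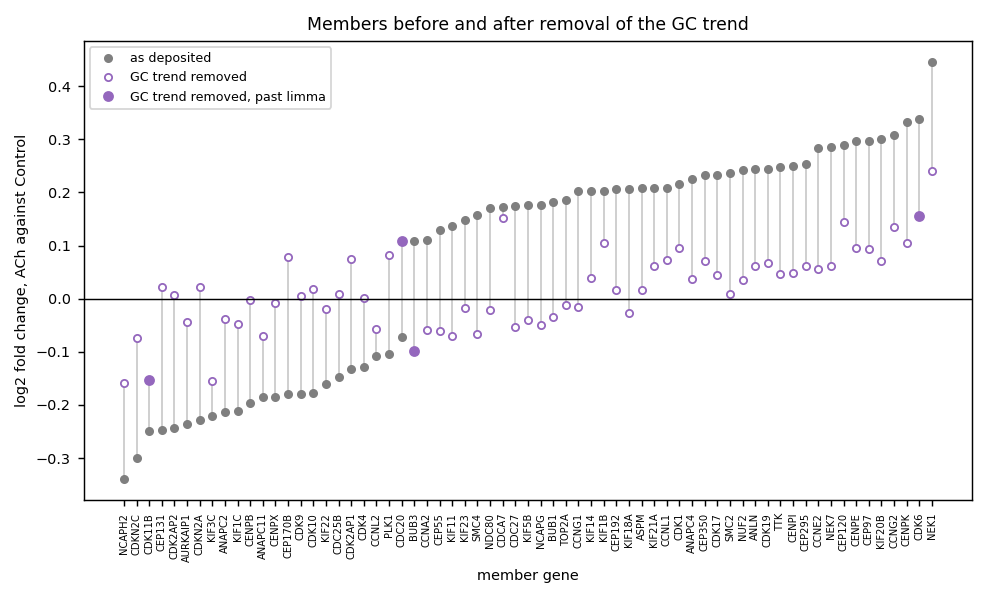
Log2 fold changes of 65 genes (vertical axis, ACh against Control), ordered by the change as deposited (grey), with the value after removal of the GC trend (purple; filled where past limma's adjusted p of 0.05). NEK5 is off the range and CENPC had no GC value. The purple points gather near 0, and the filled ones are CDK11B, CDC20, BUB3 and CDK6.

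Cyclin-dependent kinases, their phosphatases and their inhibitors were mostly lower: 4 of 13 rose, 7 fell and 2 missed a limit. Of all listed genes 28.8% rose and 35.0% fell. The median of the 13 was -0.15, and 0.02 with the GC trend removed. CDK6, a G1 kinase that with cyclin D phosphorylates the retinoblastoma protein, showed the largest rise of the 4. Its Control libraries read 3079, 3088 and 2948, its ACh libraries 3721, 3904 and 3903. All ACh libraries lay above all Control libraries, a log2 fold change of 0.34 (standard error 0.03; limma adjusted p = 5.63e-07). CDK6 (ENSG00000105810) lies on chromosome 7 from 92604921 to 92836594 in the table's coordinates. After removal of the GC trend it still passed, at 0.16 (95% interval 0.09 to 0.22, limma adjusted p = 0.0017).

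CDK4, the sister kinase with the same targets, went the other way. In Control it read 3009.7, 2986 and 2954, and in ACh 2623, 2771 and 2791, a log2 fold change of -0.13, and all ACh libraries were below all Control libraries. The ratio of CDK6 to CDK4 counts within a library, which no scaling of libraries can change, was 1.02 ± 0.02 in Control and 1.41 ± 0.01 in ACh (SD, n = 3). CDK4 stood at 0.0018 once the GC trend was removed, and the shift of the log2 ratio went from 0.47 to 0.15. Both inhibitors of these kinases in the table fell. CDKN2A went from 962 ± 70.9 to 819.9 ± 26.0 (SD, n = 3), and CDKN2C, which encodes p18, from 563 ± 51.7 to 457 ± 44.2 (SD, n = 3). Neither passed without the GC trend, with CDKN2A at 0.02 and CDKN2C at -0.07.

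CDK1, the kinase of mitotic entry, rose with uneven replicates. Its Control libraries read 2256, 2335 and 2145, its ACh libraries 2711, 2806 and 2324, so that ACh replicate 3 fell inside the Control range. Its log2 fold change was 0.22, and 0.30 without ACh replicate 3. CDC25B, the phosphatase that activates CDK1, went from 5174 ± 155 to 4672 ± 36.1 (SD, n = 3), a fall of the opposite sign to CDK1, and stood at 0.01 with the GC trend removed. Kinases of transcription also differed in sign. CDK9, the catalytic subunit of the elongation factor P-TEFb, fell (-0.18), and CDK19, a kinase of the Mediator complex, rose (0.24). CDK17, which belongs to another, less studied branch of the family, rose as well (0.23). With the GC trend removed none of the 3 was called and all stood above 0, CDK9 at 0.0043, CDK19 at 0.07 and CDK17 at 0.05.

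CDK11B, a kinase linked to splicing and mitosis, was the other gene that still passed without the GC trend. In Control it read 1061, 1137 and 1072, and in ACh 866, 952 and 935, with no overlap, a log2 fold change of -0.25 (standard error 0.05) that became -0.15 (95% interval -0.26 to -0.05, limma adjusted p = 0.0402). A near-identical neighbouring copy, CDK11A, exists, and how the counting split reads between the copies is unknown, so the value is uncertain. CDK2AP2 fell by 0.24 on the log2 scale, and CDK2AP1 (-0.13) and CDK10 (-0.18) did not pass the authors' adjusted p.

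A further 8 genes are the mitotic kinases, the checkpoint genes and AURKAIP1, which is no kinase but shares the AURK symbol. Past both limits 5 were higher and 1 was lower, beside 28.8% and 35.0% of all listed genes, and 2 missed a limit. The median of the 8 went from 0.21 to 0.05 without the GC trend. TTK, the kinase that starts the spindle checkpoint, read 1205, 1251 and 1293 in the Control libraries and 1515, 1529 and 1409.7 under ACh, a log2 fold change of 0.25, with every ACh library higher. BUB1, which TTK signalling brings to kinetochores, rose from 2012 ± 35.3 to 2282 ± 43.9 (SD, n = 3), and its partner BUB3 from 3474 ± 117 to 3744 ± 45.7 (SD, n = 3). With the GC trend removed TTK stood at 0.05 and BUB1 at -0.04, and BUB3 passed in the opposite direction at -0.10 (limma adjusted p = 0.0308). This value of BUB3 is relative to listed genes of similar GC content and does not show a fall.

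PLK1, the kinase of centrosome maturation and mitotic exit, was lower in all ACh libraries. Its Control libraries read 3114, 3268 and 3236, its ACh libraries 2974, 3008 and 2962, a log2 fold change of -0.10, and the authors' deposited adjusted p was 0.0525. It became 0.08 with the GC trend removed. The ratio of TTK to PLK1 counts was 0.39 ± 0.01 in Control and 0.498 ± 0.02 in ACh (SD, n = 3), and its shift went from 0.35 to -0.04 on the log2 scale with the GC trend removed.

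NEK7, a kinase of spindle assembly that also takes part in inflammasome activation, rose by 0.28 on the log2 scale, from 2172 ± 40.3 to 2647 ± 106 (SD, n = 3). NEK1, a kinase of cilia and the DNA damage response, rose by 0.45 and stood at 0.24 with the GC trend removed (limma adjusted p = 0.0927). NEK5 read 3.95, 2.03 and 4.61 in the Control libraries and 12.9, 6.79 and 15.7 under ACh, a few steps per library with no overlap. Its log2 fold change was 1.48 (1.33 with the GC trend removed), but the authors' deposited adjusted p was 1, so it was not called. AURKAIP1, which encodes a binding partner of Aurora A also known as a protein of the mitochondrial ribosome, was the gene that fell, from 3148 ± 65.9 to 2674 ± 43.4 (SD, n = 3). The group held its highest level per kilobase of gene length at AURKAIP1 (1744 normalised counts per kilobase) and its lowest at NEK5 (1.10).

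**Figure D4:**
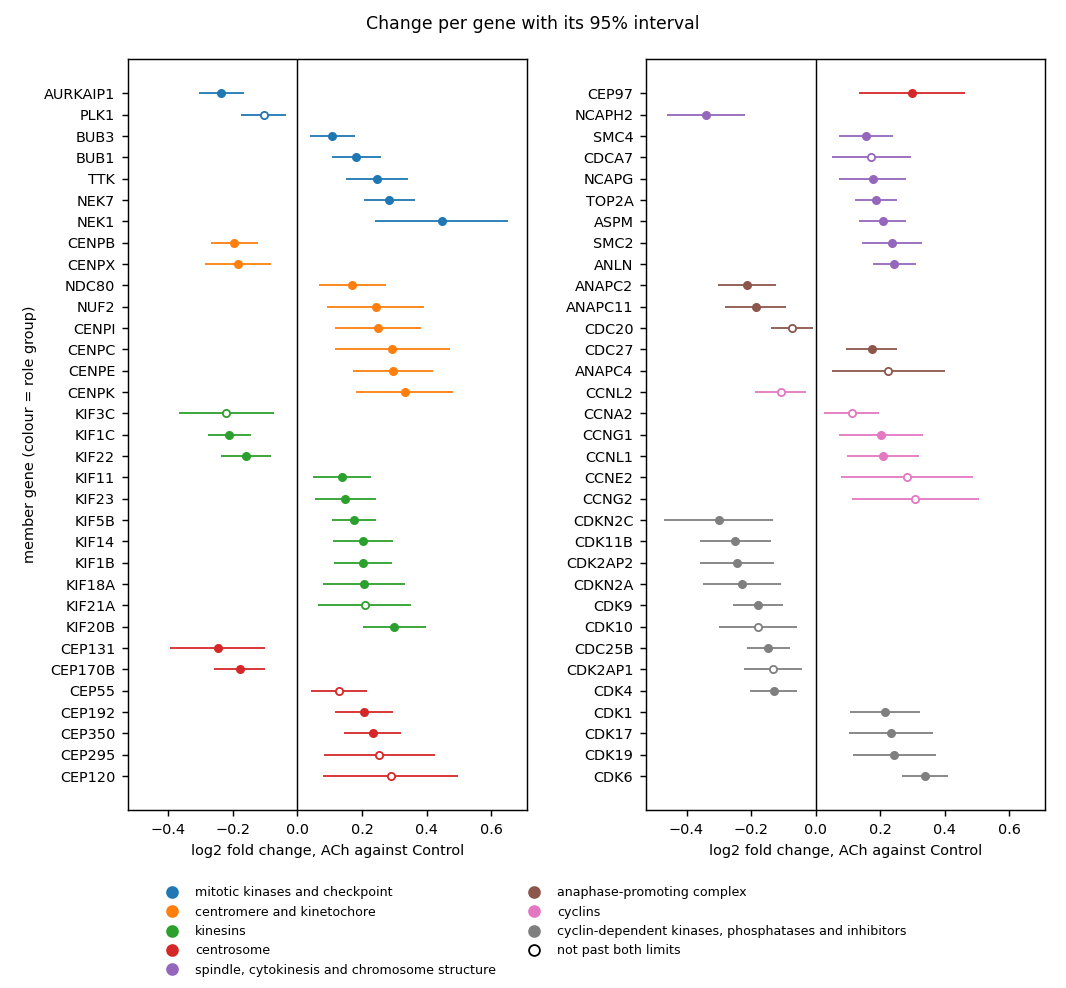
Points are log2 fold changes of ACh against Control from limma (horizontal axis) with 95% intervals, 1 gene per line, coloured by role group; open points did not pass both limits. NEK5 (1.48) is left out. Of the 13 genes around the cyclin-dependent kinases 9 lie left of 0, and each group has points on both sides.

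At the centromere and kinetochore all 8 genes with a row passed both limits, 6 higher and 2 lower. Among all listed genes 63.8% passed both, 28.8% higher and 35.0% lower. CENPE, the kinesin motor that carries chromosomes to the spindle equator, read 605, 609.8 and 607 in the Control libraries and 752, 778 and 709.6 under ACh, a log2 fold change of 0.30. CENPK, a subunit of the inner kinetochore network that sits on centromeric chromatin, rose by 0.33, CENPI, its neighbour in that network, by 0.25, and CENPC, which links the network to the centromeric nucleosome, by 0.29. NDC80 and NUF2 form one arm of the complex that grips microtubules. NDC80 rose from 1202 ± 58.8 to 1353 ± 69.4 and NUF2 from 605 ± 65.5 to 714 ± 34.0 (SD, n = 3), with the highest Control library of NUF2 at 672 and its lowest ACh library at 676.

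The 2 kinetochore genes that fell are CENPB, which binds a sequence motif in centromeric repeats, and CENPX, a histone-fold protein that also acts in DNA repair. CENPB went from 5386 ± 264 to 4698 ± 32.6 and CENPX from 1349.99 ± 58.3 to 1188 ± 59.2 (SD, n = 3). CENPX overlaps LRRC45 on the other strand, which was lower too (-0.20), and reads of the genes could not be told apart if the counting ignored strand. The ratio of CENPK to CENPX went from 0.329 ± 0.01 to 0.473 ± 0.04 (SD, n = 3), and the shift of its log2 from 0.52 to 0.11 once the GC trend was removed. None of the 7 genes with a GC value passed limma after removal of the GC trend, and none had an unadjusted p under 0.05. CENPE stood at 0.10, CENPK at 0.11, CENPI at 0.05 and CENPB at -0.0031.

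Kinesins are motors that walk along or take apart microtubules. Of the 11 chosen by the symbol KIF and a digit, 7 rose, 2 fell and 2 did not pass both limits. Of all listed genes 28.8% rose and 35.0% fell. The 6 mitotic kinesins among the 11 all passed, 5 higher and 1 lower, and of the 5 transport kinesins 2 rose and 1 fell. KIFC1, a kinesin outside this choice, was at -0.10 and did not pass the authors' adjusted p. KIF20B, a motor of cytokinesis, read 1125, 1151 and 1152 in the Control libraries and 1373, 1489 and 1363 under ACh, a log2 fold change of 0.30 (standard error 0.05), with no overlap. KIF11, which pushes the spindle poles apart, rose by 0.14, KIF23, of the central spindle, by 0.15, KIF18A, which damps chromosome movements, by 0.21, and KIF14, of the midbody, by 0.20. KIF22, the chromosome-arm motor, fell from 2216 ± 44.3 to 1983 ± 47.6 (SD, n = 3). All Control libraries of KIF22 were above all ACh libraries.

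Among the transport motors KIF5B, the heavy chain of conventional kinesin and the kinesin with the highest level per kilobase (566), rose by 0.18 and KIF1B by 0.20, while KIF1C fell by 0.21 on the log2 scale. KIF21A (0.21) and KIF3C (-0.22) did not pass the authors' adjusted p. After removal of the GC trend none of the 11 kinesins passed limma, and the median of the group went from 0.18 to -0.02. An unadjusted p under 0.05 was left in 2 of 11, against 1056 of 3676 listed genes with a GC value. KIFC1 then passed limma at 0.11 (limma adjusted p = 0.0286), opposite in sign to its change before removal. That value is relative to listed genes of similar GC content and does not show a rise. KIF20B stood at 0.07, KIF22 at -0.02, KIF5B at -0.04 and KIF1C at -0.05.

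Among 8 centrosome genes 3 rose and 2 fell, against 28.8% and 35.0% of all listed genes, and 3 missed a limit. CEP350, a large protein of centriole stability, read 1442, 1476 and 1485 in the Control libraries and 1811, 1672 and 1694 under ACh, a log2 fold change of 0.23, with all ACh libraries higher. CEP192, the scaffold that recruits Aurora A and PLK4 to the centrosome, rose by 0.21, and CEP97, which caps the centriole and holds back cilia, by 0.30. CEP131, a protein of centriolar satellites, fell from 508 ± 20.4 to 427 ± 16.2, and CEP170B from 2095 ± 60.8 to 1849 ± 41.5 (SD, n = 3). CEP55, a midbody protein of abscission, stood at 0.13, CEP120 at 0.29 and CEP295 at 0.25, each with an authors' adjusted p over 0.05. CEP295 overlaps TAF1D on the other strand (0.18). Without the GC trend none of these 8 genes passed limma, and CEP131, CEP170B and CEP55 changed sign (0.02, 0.08 and -0.06). An unadjusted p under 0.05 was left in 1 of 8, against 1056 of 3676 listed genes with a GC value.

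In the group of spindle, cytokinesis and chromosome-structure genes 6 of 8 rose, 1 fell and 1 did not pass both. Of all listed genes 28.8% rose and 35.0% fell. ANLN, the actin scaffold of the cleavage furrow, read 6592, 6669 and 6503 in the Control libraries and 7737, 8069 and 7605 under ACh, a log2 fold change of 0.24 (standard error 0.03, limma adjusted p = 7.48e-06), and the groups were well apart. TOP2A, the topoisomerase that untangles sister chromatids, had the highest level per kilobase of the group (1424). In Control it read 8747, 8519 and 8459.6, and in ACh 9594, 9978 and 9706. ASPM, which focuses the spindle poles, rose from 2257 ± 23.4 to 2606 ± 52.2 (SD, n = 3). No gene of the group passed limma once the GC trend was removed. An unadjusted p under 0.05 was left in 3 of 8, against 1056 of 3676 listed genes with a GC value. ANLN then stood at 0.06, ASPM at 0.02 and TOP2A, with its sign turned, at -0.01.

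Condensin, the ring that compacts mitotic chromosomes, was split. SMC2 and SMC4, the pair of ATPases shared by both condensins, rose by 0.24 and 0.16 on the log2 scale, and NCAPG, a subunit of condensin I, rose by 0.18. NCAPH2, the bridging subunit of condensin II, fell: its Control libraries read 862, 899 and 899, its ACh libraries 692, 749 and 662, a log2 fold change of -0.34 (standard error 0.06, limma adjusted p = 7.84e-05). The ratio of SMC2 to NCAPH2 counts was 1.51 ± 0.05 in Control and 2.25 ± 0.14 in ACh (SD, n = 3), and the shift of its log2 went from 0.58 to 0.17 with the GC trend removed. Without the GC trend SMC2 stood at 0.01, SMC4 at -0.07, NCAPG at -0.05 and NCAPH2 at -0.16 (95% interval -0.28 to -0.04), whose limma adjusted p of 0.0618 missed the threshold. NCAPG overlaps LCORL on the other strand (0.29). CDCA7, a chromatin regulator, had a log2 fold change of 0.17 that stood at 0.15 with the GC trend removed, without passing the authors' adjusted p or, without the trend, limma's (0.073).

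The anaphase-promoting complex went both ways, with 1 of the 5 genes chosen by name higher, 2 lower and 2 not past both. Of all listed genes 28.8% were higher and 35.0% lower past both limits. CDC23, of the same complex but outside this choice, rose by 0.18 and stood at 0.04 with the GC trend removed. ANAPC2 and ANAPC11, the cullin and RING subunits that form the catalytic core, fell. ANAPC2 read 2581, 2801 and 2567 in the Control libraries and 2151, 2296 and 2412 under ACh, a log2 fold change of -0.21, and ANAPC11 had -0.19. ANAPC11 overlaps ALYREF and PCYT2 on the other strand, which were lower as well (-0.27 and -0.19). CDC27, a scaffold subunit that binds the activators, read 1964, 1903 and 1944 in the Control libraries and 2248, 2207 and 2102 under ACh, all higher, a log2 fold change of 0.17. The ratio of CDC27 to ANAPC2 was 0.733 ± 0.05 in Control and 0.959 ± 0.09 in ACh (SD, n = 3).

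CDC20, the activator that is the target of the spindle checkpoint, had the highest level per kilobase of all 67 genes (3184). Its Control libraries read 6685, 6689.6 and 6585, its ACh libraries 6338, 6457 and 6183, a small difference of -0.07 with no overlap and an authors' adjusted p of 0.0969. It turned to 0.01 when libraries were scaled to equal totals over the listed genes and to 0.11 with the GC trend removed, where limma's adjusted p was 0.0171. The latter value is relative to listed genes of similar GC content and does not show a rise. ANAPC4 stood at 0.23 with overlapping groups. ANAPC2, ANAPC11 and CDC27 were at -0.04, -0.07 and -0.05 without the GC trend, and the shift of the ratio of CDC27 to ANAPC2 went from 0.39 to -0.01 on the log2 scale.

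**Figure D5:**
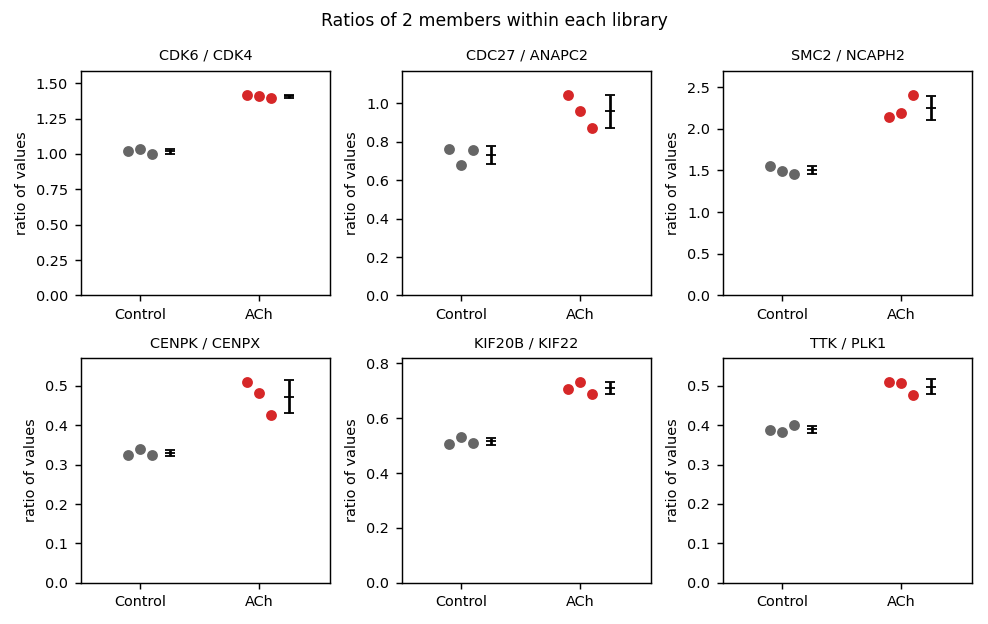
Each panel gives the ratio of the counts of 2 genes within each library (points, 3 per group; vertical axis from 0) with the mean and SD beside them. The pairs were chosen after their values were seen, each with a gene of higher ACh mean over a gene of lower ACh mean. The shared direction of the panels was therefore set by this choice. In all 6 panels the ACh points lie above the Control points, as for CDK6 over CDK4 with 1.02 in Control and 1.41 in ACh.

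Of the 6 cyclins chosen by name 2 rose and 4 did not pass both, beside the 63.8% of all listed genes past both limits. CCNC, CCNT1 and CCNT2, cyclins outside this choice, rose too (0.23, 0.24 and 0.33). CCNL1, a cyclin of splicing, rose by 0.21. CCNG1, a target of p53, read 719, 719 and 691 in the Control libraries and 899, 782 and 776 under ACh, and its log2 fold change of 0.20 became 0.13 without ACh replicate 1, the library at 899. CCNA2, the cyclin of S phase and mitotic entry and the one with the highest level per kilobase (765), stood at 0.11 with groups that barely missed each other, its highest Control library at 2143.0 and its lowest ACh library at 2143.3. CCNE2, the cyclin of entry into S phase, read 220.1, 206 and 227 in Control and 237, 282 and 279 in ACh. CCNG2, a cyclin linked to cell-cycle arrest, was at 259 ± 29.0 in Control and 319 ± 9.87 in ACh (SD, n = 3), and neither passed the authors' adjusted p. CCNL2, the relative of CCNL1, had -0.11. None of the 6 cyclins passed limma without the GC trend, and none had an unadjusted p under 0.05.

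The rest of the pathway was read from 3 lists of 115 genes that are not among the 67, of which 60 had a row. Of these 30 rose, 9 fell and 21 missed a limit, with a median log2 fold change of 0.17. The called share was 65.0%, near the 63.8% of all listed genes (28.8% higher and 35.0% lower). Among 23 kinetochore, checkpoint and cohesion genes 12 rose and 2 fell. STAG2, a cohesin subunit often mutated in cancer, went from 2159 ± 43.7 to 2712 ± 123 (SD, n = 3), and SGO2, the protector of centromeric cohesion, rose by 0.30, while the checkpoint gene MAD1L1 and INCENP, the scaffold of Aurora B, fell by 0.26 and 0.15 on the log2 scale. Among 21 spindle, centrosome and cytokinesis genes 9 rose and 4 fell, with HMMR (0.27) and ECT2 (0.26), the activator of the cleavage furrow, higher, and TUBG1, the gamma-tubulin that nucleates microtubules, and NUMA1 lower (-0.25 and -0.13).

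Of 16 listed regulators of cell-cycle kinases and ubiquitin-dependent exit 9 rose and 3 fell, against 28.8% and 35.0% of all listed genes. CCNT2 and CCNT1, the cyclin partners of CDK9, rose by 0.33 and 0.24 while CDK9 itself fell. UBE2S, the enzyme that extends ubiquitin chains for the anaphase-promoting complex, fell from 7892 ± 356 to 6542 ± 197 (SD, n = 3), and PKMYT1, a kinase that inhibits CDK1, fell by 0.23 on the log2 scale. The same split by base composition held in these lists: over 58 genes with a GC value, every higher gene had 50.1% or less and every lower gene 52.7% or more. Without the GC trend 0 of the 58 passed both limits, against 10.7% of all listed genes with a GC value, and 2 passed limma alone, against 16.6%. An unadjusted p under 0.05 was left in 6, against 1056 of the 3676 listed genes with a GC value, and the median was 0.02.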

How the data were processed

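The deposited table of the series holds, per gene, a signal value in each of 6 libraries, which the authors normalised. Its steps of equal size within a library, as read from the values, look like counts divided by one factor. It also holds the authors' log2 fold changes and p-values, per the file headers. RNA was made into libraries with a SMARTer kit, per the labels' protocols. Bowtie 0.12.2 and 2 mouse builds, mm10 and mm8, stand in the submitters' processing notes, while the gene IDs are human. The sources used here do not name the human build, the counter or its strand setting. Coordinates are printed as the table gives them.

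Groups came from the labels. limma 3.58.1 (R 4.3.3, limma-trend) was run on log2(value + 1) over all 4195 genes with group as the only term, two-sided, with Benjamini-Hochberg adjustment over the listed genes. A call also needed the authors' adjusted p under 0.05. For 234 genes that adjusted p was 1, and none of these was called. Fold changes are differences of means on the log2(value + 1) scale, which understates low genes. Count tests planned as alternatives were not run, because the Control libraries hold only 81 to 93 values at or under 20 steps, too few to establish that a step is 1 read. For GC content the mouse gene's longest coding transcript in GENCODE M21 was used, and each library's trend was removed by local regression (span 0.3) of the deviations from each gene's mean. The limma and GC steps were tested on simulated data, in which genes were not selected on a p-value. The GC step was checked only for removal of a planted trend. Whether planted changes outlast that removal was not checked. Tables and plots were made with pandas 2.3.3, Matplotlib 3.10.9, SciPy 1.17.1 and NumPy 2.4.6 under Python 3.11.15. Members, lists and tests were chosen with earlier results of these data known. The named genes were up to 3 per direction and role group with the largest change at a mean of at least 100, the highest level per kilobase, genes against their group, genes kept without the GC trend and uncalled genes changed at least 1.5-fold. The other genes named were chosen after their values were seen, as were the ratios.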

Additional observations from a re-analysis of the deposited data

How the results depend on the processing

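Counts are of genes past both limits. Each setting changed limma only, and the authors' adjusted p was kept as deposited, whatever its direction. A gene of the 67 without a call in the main fit could therefore not gain one. With the GC trend removed the counts were 1 higher and 2 lower over the 67 genes, and with the replicate block as well 2 and 3. By group, removal left 0 higher in each group but the cyclin-dependent kinases (1 higher and 1 lower) and 0 lower in the others except the mitotic kinases and checkpoint genes (1, BUB3). With the replicate block as well it left 0 higher outside the cyclin-dependent kinases (2 higher and 1 lower) and 0 lower elsewhere except the mitotic kinases and checkpoint genes (1) and the spindle group (1). Equal totals left 1 lower kinetochore gene and 1 lower kinesin. Leaving out the genes with the lowest means left 3 higher kinetochore genes and 1 lower centrosome gene, since the others fell under the filter. The median of the 67 genes was 0.26 with equal totals and 0.0175 with the GC trend removed, with or without the replicate block.

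The sign turned with the GC trend removed, with and without the block, for PLK1 (0.0825), BUB3 (-0.0989), BUB1 (-0.0351), NDC80 (-0.0222), KIF11 (-0.0706), KIF23 (-0.0183), KIF5B (-0.0406), KIF18A (-0.0272), CEP131 (0.0226), CEP170B (0.0784), CEP55 (-0.0612), SMC4 (-0.0672), NCAPG (-0.0503), TOP2A (-0.0114), CDC20 (0.108), CDC27 (-0.0531), CCNA2 (-0.0588), CCNG1 (-0.0161), CDK2AP2 (0.00772), CDKN2A (0.0225), CDK9 (0.00427), CDK10 (0.0182), CDC25B (0.00835), CDK2AP1 (0.0745), CDK4 (0.00184), PKMYT1 (0.0538), NUMA1 (0.0573) and INCENP (0.0143). This list covers the 67 genes and the genes picked by the naming rule from the other pathway lists. Further genes of those lists, among them KIFC1 (0.11), also turned with the GC trend removed. CDC20 turned with equal totals too (0.00711). Leaving out single libraries gave 33 to 34 higher and 17 to 17 lower genes, 1 to 2 higher cyclins, and a median of 0.17 to 0.19.

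A pseudocount of 0.1, adjustment over the 11193 tests that the authors' values imply, and the replicate block alone (34 higher and 17 lower, median 0.18) changed no call of the 67 genes. Same-numbered libraries of the groups deviated together only weakly (r = 0.08, 0.06 and 0.05, each library's highest with its own number), so the numbers were not taken as pairs. The edgeR and DESeq2 alternatives were not run. Depth is unknown.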
